A study of Mus musculus with 2 samples.

Results

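Prostaglandin synthesis was represented by 8 genes, Ptgs1, Ptgs2, Ptges, Ptges2, Ptges3, Pla2g4a, Hpgd and Ptgis, and 6 of them were measured, out of 10843 named genes in the series. A gene was taken as measured where at least 1 spot carried its symbol, and no other symbol, in the platform annotation. The 6 genes had 14 spots between them: 3 each for Pla2g4a, Hpgd and Ptgis, 2 each for Ptgs2 and Ptges2, and 1 for Ptges. Ptgs1 and Ptges3 had no spot under their symbols and were not analysed here. The study examined flexor tendon cells of mouse that were sheared for 12 h at 50 rpm or for 6 h, each against unsheared control cells of the same time point. RNA of sheared cells was labelled with Cy5 and RNA of control cells with Cy3, and the pair was hybridised to 1 spotted array per time point. The labels describe the cells of the 6 h array as pooled, give the shear setting at 12 h, and name the 12 h controls as tenocytes, the fibroblasts of tendon. Strain, age and sex of the mice are not given in the sources used here.

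Prostaglandins are made from arachidonic acid, which cytosolic phospholipase A2 (Pla2g4a) frees from membrane lipids. The cyclooxygenases, constitutive Ptgs1 and inducible Ptgs2, convert it to prostaglandin H2, and terminal synthases turn that into prostaglandin E2 (Ptges, Ptges2, Ptges3) or prostacyclin (Ptgis), while Hpgd inactivates the products. Prostaglandin E2 is a local mediator of inflammation and pain, and loaded tendon fibroblasts are known to release it.

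Each value is a log2 ratio after the median of all spots of its array was subtracted, so 0 is the level of the median spot, and a gene's value is the median of its spots. The base of 2 is assumed. The direction, sheared over control, is only likely: the labels put sheared RNA in the red channel, and the database that holds the array images stores red over green. An opposite direction would turn each higher value into a lower one. Each time point has 1 array, so there is no test, "higher" and "lower" refer to these 2 arrays alone, and precision is limited by their number. The error available is the SD between spots of a gene, pooled to 0.855 log2 over 5579 genes at 12 h and 0.738 over 5396 genes at 6 h. Spots printed from the same accession differed no less, with a pooled SD of 0.997 over 579 sets at 12 h and 0.900 over 524 sets at 6 h. The spread between spots measures neither variation between cultures nor a difference between the dyes. Sheared RNA carried Cy5 on both arrays, so effects of shear and of dye cannot be told apart. The values are ratios of bulk RNA, so fewer cells of a type and less RNA per cell cannot be told apart, and neither the level of a gene nor the identity of the cells can be read from them.

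None of the measured prostaglandin synthesis genes stood at least 1.5-fold higher in sheared cells on either array. At 12 h, 3 of 6 genes were at least 1.5-fold lower, Pla2g4a, Hpgd and Ptges, against 33.1% of 10731 genes lower and 24.4% higher by that fold on the whole array. At 6 h, 1 of 5 genes was lower, Hpgd, against 31.3% of 10346 genes lower and 18.2% higher. The inducible cyclooxygenase Ptgs2 lay near 0 on both arrays, but its spots disagreed at 6 h. The median was -0.47 over the 6 genes measured at 12 h and -0.27 over the 5 measured at 6 h. Over all genes it was -0.14 at 12 h and -0.11 at 6 h. The medians of the synthesis genes cover different genes, since Ptges had no value at 6 h. Among the 5 genes measured on both arrays the middle value at 12 h was that of Ptgis, -0.113. By a stricter fold of 2, 1 of 6 genes was lower at 12 h (Pla2g4a) and none higher, beside 20.5% and 14.5% of all genes, and none of 5 was lower or higher at 6 h, beside 18.8% and 6.2%. Without centring the shares of all genes would be 51.5% lower and 13.4% higher at 12 h, and 43.7% lower and 8.35% higher at 6 h, since the array medians taken off were -0.479 (12 h) and -0.323 (6 h). On those uncentred values 4 of 6 synthesis genes were lower at 12 h and 3 of 5 at 6 h, so the 6 h count depended on the centring.

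The promoter window of Ptgs2, from 250 bases before to 50 after its RefSeq start, is shown first because this gene is the inducible step of the pathway. The windows of Pla2g4a, Ptges and Hpgd are shown because these genes were the 3 lower ones at 12 h; Pla2g4a and Hpgd were added after their values were seen, and of the 2 starts listed for Pla2g4a the upstream one is shown. All are RefSeq sequence of build GRCm38.p6, read 5′ to 3′ on the strand of the gene, and capitals mark the motifs searched. They lie at chr1:150099781-150100080 (plus strand), chr1:149961241-149961540 (minus), chr2:30903248-30903547 (minus) and chr8:56294302-56294601 (plus).
Ptgs2: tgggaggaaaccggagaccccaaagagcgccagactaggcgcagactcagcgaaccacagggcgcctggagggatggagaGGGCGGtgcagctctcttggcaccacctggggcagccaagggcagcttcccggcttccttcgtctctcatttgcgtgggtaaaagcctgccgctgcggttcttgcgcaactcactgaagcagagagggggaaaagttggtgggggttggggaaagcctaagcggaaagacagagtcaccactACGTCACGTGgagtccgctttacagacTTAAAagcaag
Pla2g4a: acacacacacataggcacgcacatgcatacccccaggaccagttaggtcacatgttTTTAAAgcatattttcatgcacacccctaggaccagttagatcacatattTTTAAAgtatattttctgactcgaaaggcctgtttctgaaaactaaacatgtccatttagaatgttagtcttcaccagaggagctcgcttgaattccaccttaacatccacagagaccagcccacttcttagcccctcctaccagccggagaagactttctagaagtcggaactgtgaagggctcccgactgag
Ptges: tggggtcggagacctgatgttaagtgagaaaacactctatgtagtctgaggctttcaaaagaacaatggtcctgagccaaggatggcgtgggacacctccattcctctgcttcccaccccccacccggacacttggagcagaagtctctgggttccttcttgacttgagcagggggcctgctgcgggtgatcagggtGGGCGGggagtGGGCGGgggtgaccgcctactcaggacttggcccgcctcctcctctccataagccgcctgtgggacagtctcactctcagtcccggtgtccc
Hpgd: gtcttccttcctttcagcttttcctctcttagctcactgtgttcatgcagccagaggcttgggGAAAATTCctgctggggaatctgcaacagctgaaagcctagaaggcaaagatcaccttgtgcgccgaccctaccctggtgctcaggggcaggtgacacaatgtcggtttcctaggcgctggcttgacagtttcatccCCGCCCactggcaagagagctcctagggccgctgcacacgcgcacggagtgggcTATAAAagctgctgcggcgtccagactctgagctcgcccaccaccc

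The motifs searched on both strands were the core of the cyclic AMP response element (TGACGT), the E-box (CACGTG), the GC box (GGGCGG), the CCAAT box, a TATA box in the form TATAAA and the short run TTTAA. Also searched were the AP-1 motif (TGANTCA), an NF-kB type motif, the heat shock element core (GAANNTTC) and a pair of EGR motifs, GCGTGGGCG for the first and GCGGGGGCG for the other. In the Ptgs2 window the cyclic AMP core, read as ACGTCA on the printed strand from base 13 after the start, overlapped an E-box from base 17. A cyclic AMP core was held by 7.51% and an E-box by 7.15% of all 32851 windows. Ptgs2 also held a GC box and TTAAA, the reverse complement of TTTAA, which 35.7% and 37.7% of windows hold. The Ptges window held 2 GC boxes, at 53 and 42 bases before the start. The Hpgd window held a GC box, TATAAA (13.6% of windows) from base 5 after the start, and a heat shock element core (7.86%). The Pla2g4a window held TTTAA at 2 places, each overlapping its own reverse complement. AP-1 letters (7.81% of all windows), the NF-kB type motif (1.63%), GCGTGGGCG (0.612%), GCGGGGGCG (2.91%) and CCAAT (37.4%) were in none of the 4 windows shown. The window of the other Pla2g4a start, not shown, did hold CCAAT, with TTTAA and the reverse complement of TATAAA. A match is a description of these letters and was not measured as a bound site.

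Pla2g4a, the phospholipase that opens the pathway, was lower in sheared cells on the 12 h array and near the median on the 6 h array. Its 3 spots read -0.91, -1.065 and -1.745 at 12 h, against -0.09 and -0.45 on the spots of the -0.91 and -1.065 readings at 6 h, where the last had no value. All measured spots lay below 0 on both arrays, and the lowest at 12 h was the spot with no value at 6 h. The gene value was -1.065 (probe SD 0.44, 3 spots), a 2.09-fold lower level, at 12 h and -0.27 (probe SD 0.25, 2 spots), a 1.21-fold lower level, at 6 h. The 12 h value exceeded the SD between its own spots and the pooled SD of 0.855, and lay at percentile 19.0 of all genes. Within the spots measured on both arrays the value at 12 h was below that at 6 h in 2 of 2, by a median of -0.72, where 90% of the 10286 genes on both arrays differed by -1.20 to 1.47.

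Ptgs2, the inducible cyclooxygenase, showed no difference between sheared and control cells that exceeded the disagreement of its spots. At 12 h its 2 spots read 0.12 and -0.05, and the gene value was 0.04 (probe SD 0.12), at percentile 57.2 of all genes. At 6 h the same spots read 1.01 and -0.73, that is 2.01-fold higher on 1 spot and 1.66-fold lower on the other. Their median of 0.14 (probe SD 1.23) therefore described neither spot. The 12 h minus 6 h difference was -0.89 on the first spot and 0.69 on the other, so the direction between the arrays depended on the spot. Ptgs2 and Pla2g4a are neighbouring protein-coding genes on chromosome 1 in the RefSeq table, and their 12 h values were 0.04 and -1.065.

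The genes with a pair of values nearest to that of Ptgs2 were Ehd1, Lztfl1, Sephs1, Faf2 and Sh2b1, by Euclidean distance over the 2 arrays among 5344 other genes with at least 2 spots on each. Ehd1 stood at 0.03 at 12 h and 0.14 at 6 h. Such values were common: 320 of these genes lay within 0.2 log2 of Ptgs2 on both arrays. The 6 h value of Ptgs2 used here is the median that described neither of its spots, so nearness to it says little about Ptgs2.

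Of the prostaglandin E synthases, Ptges and Ptges2 lay below 0 at 12 h by gene value, but the spots of Ptges2 lay on both sides of 0. Ptges, the inducible microsomal enzyme that usually works with Ptgs2, had 1 spot, which read -0.82 at 12 h, a 1.76-fold lower level at percentile 25.2, and had no value at 6 h. This value is smaller than the pooled SD between spots of a gene, 0.855. Ptges2, the membrane-associated synthase, had spots of 0.59 and -0.77 at 12 h, and of 0.50 and -1.24 at 6 h. Both arrays placed the first spot above 0 and the second below it, so the spots kept their order while their medians, -0.09 (probe SD 0.96) at 12 h and -0.37 (probe SD 1.23) at 6 h, lay between them. Both Ptges2 spots were higher at 12 h than at 6 h, by 0.09 and 0.47. The pooled SD compares different spots on an array, so it does not measure the error of a change within a spot.

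Ptgis, prostacyclin synthase, was near 0 by its median with 1 spot apart from the others. Its 3 spots read -0.15, 1.51 and -0.11 at 12 h, against 0.01, 0.66 and -0.78 at 6 h. The second spot was the highest on both arrays, 2.84-fold higher at 12 h and 1.58-fold higher at 6 h. The other 2 came from the same accession, and they were close at 12 h but lay on both sides of 0 at 6 h. The gene value was -0.11 (probe SD 0.94, 3 spots) at 12 h and 0.01 (probe SD 0.72, 3 spots) at 6 h. The mean of the spots in place of the median gave 0.42 at 12 h and -0.04 at 6 h, so the sign of Ptgis depended on how its spots were summarised.

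Hpgd, the dehydrogenase that inactivates prostaglandin E2, was the member that lay past 1.5-fold lower on both arrays. Its 3 spots read -0.83, -0.42 and -2.13 at 12 h, against -0.50 and -1.14 on the spots of the -0.83 and -0.42 readings at 6 h. All values were below 0, and of the 2 spots on both arrays a different one was the lower on each. The spots that read -0.83 and -2.13 at 12 h carry the same accession, and the lower of them had no value at 6 h. The gene value was -0.83 (probe SD 0.89), a 1.78-fold lower level, at 12 h and -0.82 (probe SD 0.45), a 1.77-fold lower level, at 6 h. These lie at percentile 24.8 of all genes at 12 h and 23.7 at 6 h, and the 12 h value did not exceed the SD between its own spots.

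**Figure D1:**
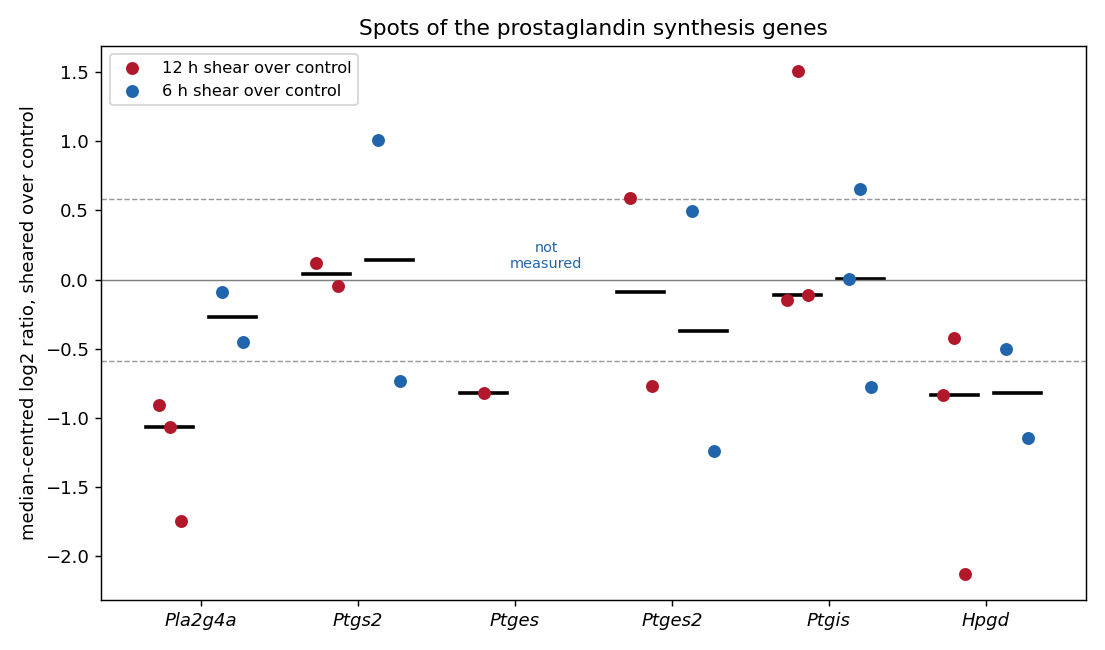
Median-centred log2 ratio, sheared over control, of each spot (points) of the 6 measured genes, with the 12 h array in red left of the 6 h array in blue. Black bars are gene medians and dashed lines mark 1.5-fold; all spots of Pla2g4a and Hpgd lie below 0, while those of Ptges2 lie on both sides of 0 on both arrays.

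Counted by spot, 7 of the 14 spots were at least 1.5-fold lower at 12 h and 2 were higher, beside 30.5% lower and 31.2% higher over all spots of that array. At 6 h, 4 of 11 spots were lower and 2 higher, beside 28.5% and 24.9%. The 3 spots with no value at 6 h, 1 each of Ptges, Pla2g4a and Hpgd, read -0.82, -1.745 and -2.13 at 12 h. Missing spots made up 2.13% of the 12 h array and 6.68% of the 6 h array. Spots of 1 gene share their target, so these counts hold 6 genes and not 14 independent measurements.

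**Figure D2:**
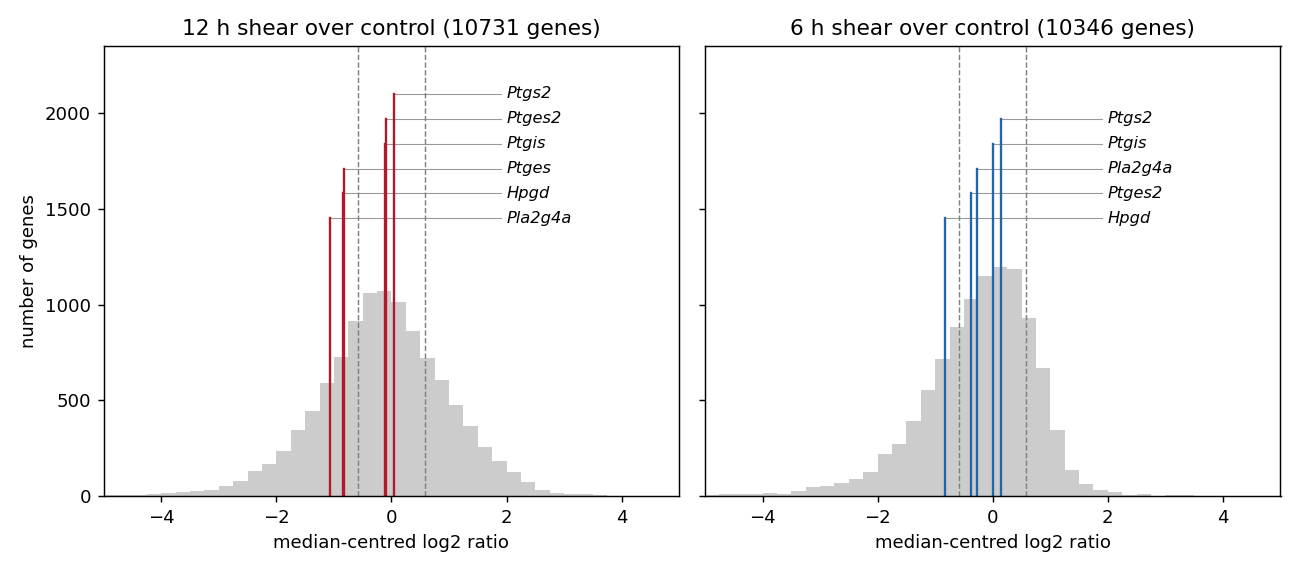
Number of named genes (y axis) by median-centred log2 ratio (x axis, shown from -5 to 5) on the 12 h array, left, and the 6 h array, right, with the values of the synthesis genes as vertical lines whose height has no meaning. The genes lie between percentile 19.0 (Pla2g4a) and 57.2 (Ptgs2) at 12 h, inside the body of the distribution.

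The order of the gene values at 12 h, low to high, was Pla2g4a, Hpgd, Ptges, Ptgis, Ptges2 and Ptgs2, and at 6 h it was Hpgd, Ptges2, Pla2g4a, Ptgis and Ptgs2. Neighbours in both orders differed by less than the pooled SD between spots. By gene medians, Pla2g4a changed most between the arrays among the 5 genes measured on both, at -0.79 (12 h minus 6 h). Hpgd differed by -0.01, Ptgs2 by -0.10, Ptgis by -0.12 and Ptges2 by 0.28. With the arrays scaled to equal spread, Pla2g4a differed by -0.65. The 6 h cells were labelled pooled, the shear setting is given only for 12 h, and each time point has its own control and array. Time cannot be told apart from these. Within matched spots the median differences were -0.72 for Pla2g4a, 0.195 for Hpgd, -0.10 for Ptgs2, 0.66 for Ptgis and 0.28 for Ptges2, so Ptgis and Hpgd turned sign. By spot, 5 of 11 read lower at 12 h than at 6 h, beside 40.3% of all spots measured on both arrays.

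**Figure D3:**
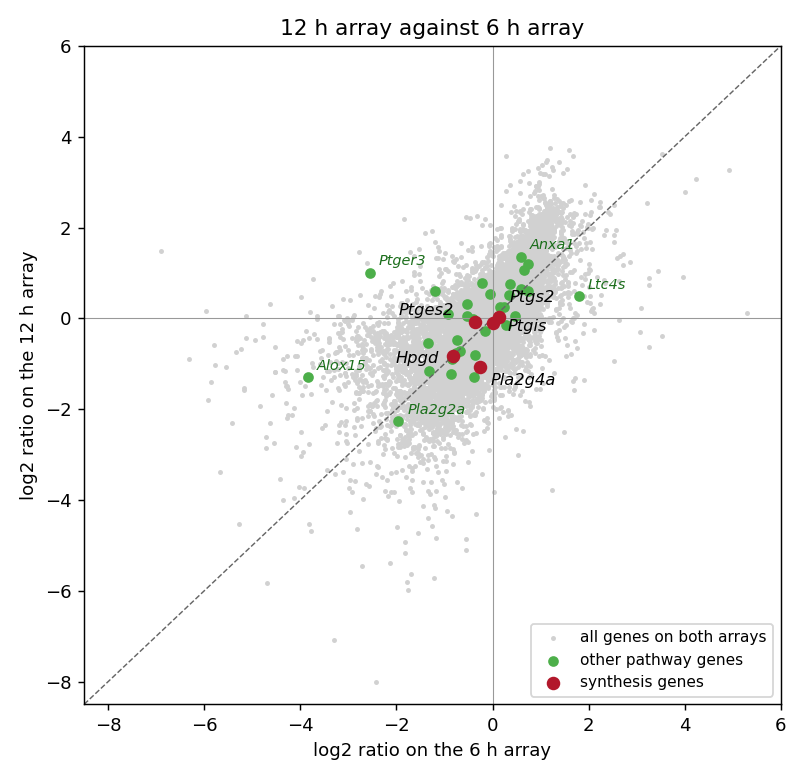
Gene values on the 12 h array (y axis) against the 6 h array (x axis), both as median-centred log2 ratio, for all genes on both arrays (grey), the 5 synthesis genes on both (red) and other eicosanoid pathway genes (green); the dashed line marks equal values. Pla2g4a lies below the line, at -1.065 at 12 h against -0.27 at 6 h, and the receptor Ptger3 lies far above it, at 1.01 at 12 h against -2.56 at 6 h.

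The wider pathway held 53 other listed genes, of which 36 had a spot. At 12 h, 9 of the 35 with a value were past 1.5-fold higher and 12 past 1.5-fold lower, around a median of 0.05. At 6 h, 6 of 32 were higher and 12 lower, around a median of -0.38. These counts stand beside 24.4% higher and 33.1% lower at 12 h and 18.2% and 31.3% at 6 h over all genes.

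Among genes that release or handle arachidonate, 3 of 10 were higher and 5 lower at 12 h, and 2 of 10 were higher and 3 lower at 6 h. The median of this list, which includes Pla2g4a, was -0.125 at 12 h and -0.24 at 6 h. The secreted phospholipase Pla2g2a stood at -2.27 at 12 h and -1.96 at 6 h, on 1 spot. Mgll, a lipase that frees fatty acids from monoacylglycerols, stood at -1.23 (probe SD 0.07) at 12 h and -0.87 (probe SD 0.15) at 6 h, with both spots below 0 on each array. Anxa1, annexin A1, known as a restraint on phospholipase A2, stood at 1.36 (probe SD 0.66, 5 spots) at 12 h and 0.59 (probe SD 0.40) at 6 h, with 4 of 5 spots above 0 on each.

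Of the other prostanoid synthases, Ptgis included, 1 of 8 was higher and 2 lower at 12 h, and 1 of 6 was higher and 2 lower at 6 h. Ptgds, the lipocalin-type prostaglandin D synthase, stood at 0.10 (probe SD 1.42) at 12 h and -0.93 (probe SD 1.96) at 6 h, with spots on both sides of 0. The carbonyl reductase Cbr3 stood at 0.64 (probe SD 1.12) at 12 h and 0.60 (probe SD 0.37) at 6 h, with all 3 spots above 0 on each, and its relative Cbr2 at -0.48 (probe SD 0.54) at 12 h and -0.74 (probe SD 0.74) at 6 h. In the list of breakdown and export, which includes Hpgd, 2 of 4 genes were lower and none higher on each array. The prostaglandin transporter Slco2a1 stood at -1.15 at 12 h and -1.31 at 6 h on 1 spot, and the reductase Ptgr2 at -0.27 (probe SD 0.56, 6 spots) at 12 h and -0.17 (probe SD 0.55) at 6 h.

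Of the 3 measured prostanoid receptors, Ptger2, Ptger3 and Ptger4, 1 was at least 1.5-fold higher and none lower at 12 h, and none was higher and 2 were lower at 6 h. With Ptgfrn, a membrane protein that lowers ligand binding of the prostaglandin F receptor and was at least 1.5-fold lower on both arrays, the list medians were -0.24 at 12 h and -1.01 at 6 h. Ptger2, an EP receptor that raises cyclic AMP, stood at -0.54 at 12 h and -1.34 at 6 h, and Ptgfrn stood at -0.72 at 12 h and -0.69 at 6 h, each on 1 spot. Ptger3, an EP receptor that lowers cyclic AMP, stood on opposite sides of 0, at 1.01 at 12 h and -2.56 at 6 h, also on 1 spot. In the leukotriene, lipoxygenase and epoxide arms, 4 of 12 genes were higher and 4 lower at 12 h, and 3 of 11 higher and 3 lower at 6 h. Their leading members rest on 1 spot each: the lipoxygenase Alox15 at -1.29 at 12 h and -3.84 at 6 h, leukotriene C4 synthase Ltc4s at 0.49 at 12 h and 1.80 at 6 h, and the lipoxygenase Alox12b at 1.20 at 12 h and 0.75 at 6 h.

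**Figure D4:**
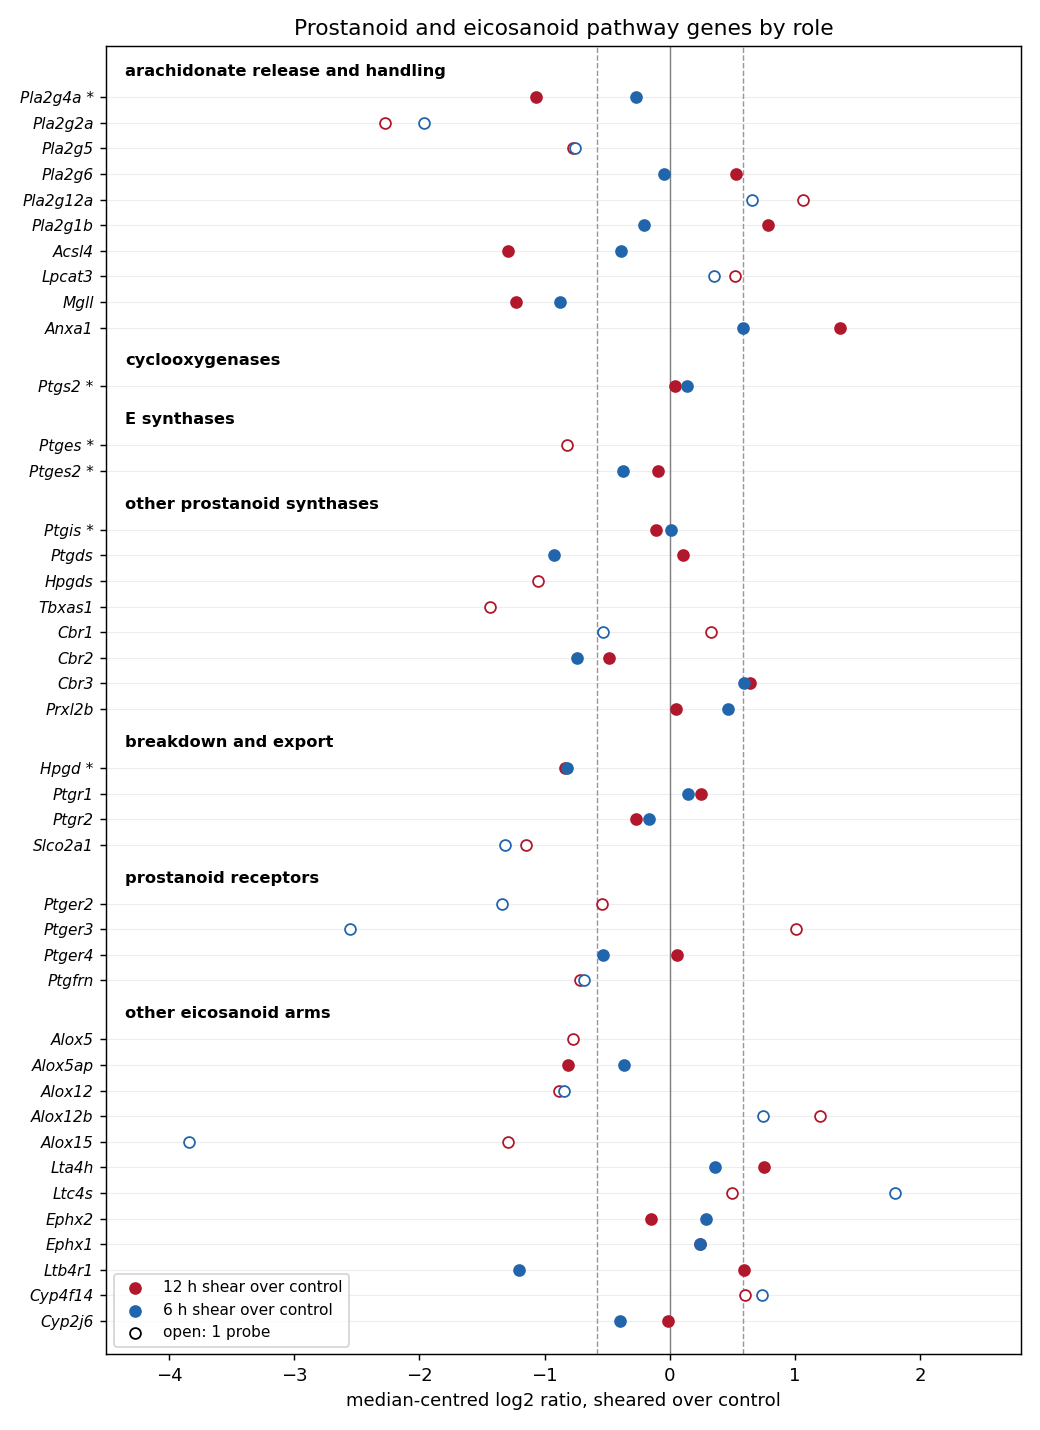
Median-centred log2 ratio, sheared over control, of each measured pathway gene by role, at 12 h (red) and 6 h (blue); open circles rest on 1 spot, asterisks mark the synthesis genes and dashed lines mark 1.5-fold. Pla2g4a and Mgll lie left of the lower line at 12 h, and Anxa1 lies to the right.

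Ptges3 is also the co-chaperone p23 of Hsp90. Ptges3 was not measured. Of the other genes of that cycle, 6 of 8 were at least 1.5-fold higher on each array, beside 24.4% of all genes at 12 h and 18.2% at 6 h. The list had 1 gene lower at 12 h, none lower at 6 h, and medians of 1.31 at 12 h and 0.99 at 6 h. Hsp90aa1 stood at 1.66 (probe SD 0.49, 12 spots) at 12 h and 1.55 (probe SD 0.69) at 6 h, Hspa8 at 1.76 (probe SD 0.25) at 12 h and 1.27 (probe SD 0.26) at 6 h, and Dnaja1 at 1.32 (probe SD 0.47) at 12 h and 1.485 (probe SD 0.92) at 6 h.

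Markers of cell types that also make prostanoids were set beside these values. The whole 12 h array, as a background for the marker counts, had 24.4% of its genes past 1.5-fold upward and 33.1% downward. For the 6 h array these shares were 18.2% and 31.3%, and no marker list was tested against them. Of 8 measured leukocyte and macrophage markers, 4 lay past 1.5-fold higher and 2 past 1.5-fold lower at 12 h (median 0.80, range -2.31 to 1.70). At 6 h, 2 were higher and 3 lower (median 0.42, range -5.415 to 0.80). Of 4 endothelial markers none was higher and 1 lower at 12 h (median -0.40, range -0.65 to -0.07), and 1 was higher and 2 lower at 6 h (median -0.44, range -2.03 to 1.76). Of the mast cell markers none was higher and 2 of 4 were lower at 12 h (median -0.525, range -1.05 to -0.13), and none was higher and 2 of 3 lower at 6 h (median -1.44, highest value -0.0005, lowest -3.57). Hpgds, among the mast cell markers lower at 12 h, is also counted among the other prostanoid synthases. Its 1 spot read -1.05 at 12 h and had no value at 6 h. Of 14 tendon fibroblast markers 8 were measured. At 12 h 2 of them were higher and 1 lower (median -0.07, range -1.855 to 0.75), and at 6 h none was higher and 1 lower (median -0.01, range -0.745 to 0.55). The higher ones at 12 h were Fmod, at 0.75 with both spots above 0, and Dcn, at 0.615 with 6 of 7 spots above 0. The lower one on both arrays was the growth factor receptor Pdgfra, with all 3 spots below 0 on each. The transcription factors Scx and Mkx and the membrane protein Tnmd were not among the measured markers. The part of these cell types in the values of the synthesis genes was not tested.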

How the data were processed

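Gene expression of sheared and control mouse tendon cells was measured on 2 two-colour spotted arrays, 1 for 12 h and 1 for 6 h. The authors deposited a log2 ratio per spot (base 2 assumed); scanner, background correction, normalization and spot filter are not given in the sources used here. Spot brightness was not used, so the depth is unknown. Deposited values ran from -8.483 to 5.227 at 12 h (41717 spots measured) and from -7.228 to 5.478 at 6 h (39776 measured), of 42624 spots.

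With Python 3.11.15 and pandas 2.3.3, each array was centred on its median, and a gene took the median of its spots with exactly 1 symbol in GEO's platform annotation (21701 spots; 1124 had several symbols and 19799 none). Called means at least 1.5-fold. The code for the gene medians was tested on simulated data with known shifts larger than 2-fold. The simulated spots varied less than the measured ones, so that test does not bear on how reliable the 1.5-fold calls are. The members and lists were chosen with earlier results of these data known. Named were all measured members, in each pathway list the 3 genes with the largest mean absolute value over both arrays, and the 5 genes nearest to Ptgs2. The tendon fibroblast markers past 1.5-fold on either array were also named, and others are named as chosen after their values were seen. Promoters of 7 members were found in RefSeq's table. Alternatives were no centring, the mean of spots, spots with several symbols kept, arrays scaled to 1 spread, 48 print blocks of 900 spot numbers centred, the farthest spot left out, matched spots, a 2-fold threshold and members with 2 or more spots.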

Additional observations from a re-analysis of the deposited data

Results flagged for a closer look

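Ptger3, the EP receptor that lowers cyclic AMP, lay past 1.5-fold on opposite sides of 0 on the 2 arrays, at 1.01 at 12 h and -2.56 at 6 h, a difference of 3.56 log2. The difference was not tested, and each value rests on 1 spot of 1 array. Ltb4r1, a leukotriene B4 receptor outside the rule for named genes and chosen after its values were seen, lay likewise at 0.595 (probe SD 0.71) at 12 h and -1.21 (probe SD 0.69) at 6 h, on 2 spots that shared a sign on each array. That difference, 1.80 log2, was not tested either.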

How the results depend on the processing

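No measured synthesis gene was at least 1.5-fold higher under any alternative run, at 12 h or at 6 h. The count of lower genes at 12 h was 3, and 1 at a 2-fold threshold, 4 without centring and 2 over genes with 2 or more spots. At 6 h it was 1, and 3 without centring and 0 at a 2-fold threshold. Without centring Pla2g4a read -1.54 at 12 h and -0.59 at 6 h, and Ptgs2 read -0.44 at 12 h and -0.18 at 6 h. The cause lies in the alternative itself, which leaves each array's median in the values. The sign of Ptges2 at 12 h turned to 0.13 with print blocks centred, and Ptgis turned to 0.42 at 12 h with the mean of spots and to -0.11 at 6 h with print blocks centred. All 33 alternative values of the differences between 12 h and 6 h moved by less than the spread between spots. This spread is wide and holds offsets between spots that cancel within a spot, so the comparison says little about stability. Under some alternatives the sign turned. Ptgis read 0.66 within matched spots, against -0.12, and Hpgd 0.195, against -0.01. Ptgs2 read 0.04 with print blocks centred, against -0.10. No paired analysis was possible because each time point has 1 array. Spot brightness was not used, so dim spots cannot be set apart from bright ones.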
